A study of Mus musculus with 9 samples.

Results

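The calcium pump of the sarcoplasmic reticulum, the small proteins that regulate it and the calcium buffers of muscle were followed in mouse hindlimb muscle after birth. They are represented by 9 genes chosen by name: the pump genes Atp2a1 and Atp2a2, the pump inhibitors Sln and Pln, the calsequestrins Casq1 and Casq2, and Srl, Hrc and Pvalb. Each had 1 probe set with a single gene symbol among the 22180 genes measured, so the rule of keeping the probe set with the highest mean left no choice. RNA came from hindlimb skeletal muscle of mice of mixed strain on postnatal days 2, 7 and 14, called P2, P7 and P14; every age has 3 arrays, 9 in all, and no treatment is named. The sources used here do not say whether a replicate was 1 animal or a pool, nor give sex or genotype. A p-value thus sets a change against the spread of these samples only, which may partly be technical.

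In a resting fibre, SERCA pumps return calcium from the cytosol to the sarcoplasmic reticulum, where calsequestrin, sarcalumenin and the histidine-rich calcium-binding protein hold it until the ryanodine receptor releases it again. SERCA1, encoded by Atp2a1, is the pump of fast fibres, and SERCA2, encoded by Atp2a2, is the pump of slow fibres, heart and smooth muscle. Sarcolipin (Sln) and phospholamban (Pln) are short membrane peptides that bind the pump and lower its calcium uptake. Parvalbumin (Pvalb) is a soluble cytosolic protein that takes up calcium quickly in fast fibres and so shortens the twitch.

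Values are log2 intensities, on which a difference of 1 is a 2-fold change. As a background level, the 95th percentile of 1443 smell, pheromone and taste receptor genes was 3.23, a yardstick chosen after values were seen. Across genes (not independent replicates) the correlation of replicate arrays was lowest among the P2 arrays, 0.953 to 0.964, and 0.968 to 0.984 among the later ones; 0 pairs of arrays were identical. The skeletal muscle genes Acta1 and Ckm, an actin and a creatine kinase, had means of 11.94 and 10.22 already at P2. Their list of 10 markers averaged between 8.74 and 9.29 on the P2 arrays and between 9.73 and 9.85 on the P14 arrays. Heart also expresses Atp2a2, Casq2, Pln and Sln; its 10 markers averaged between 3.20 and 3.45 over the 9 arrays, near the receptor level, and 3 of them were below it at every age. In such bulk samples, fewer cells of a type and less RNA per cell cannot be told apart.

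From P2 to P14, 5 of the 9 genes rose (Pvalb, Casq1, Atp2a1, Hrc and Srl), Sln and Casq2 fell, and Atp2a2 and Pln were not called by limma at an adjusted p under 0.05. Among all genes tested, 6.63% rose and 4.40% fell over the same span. The median log2 change of the 9 genes was 0.61, and that of all genes 0.013. The arrays of P14 lay wholly above those of P2 for 5 genes and wholly below for 2, against 16.2% and 12.6% of all genes. The moderated F-test over the 3 ages called 6 of the 9, where 8.24% of all genes were called; the exceptions were Pln, Atp2a2 and Srl (adjusted p = 0.456, 0.705 and 0.0748).

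From P2 to P7 the test called 1 gene, Pvalb, which rose, and 0 that fell. Of all genes 0.329% were called, 0.185% higher and 0.144% lower. Of the 9, 3 had a positive and 0 a negative change at an unadjusted p under 0.05, where 6.21% and 6.61% of all genes did. From P7 to P14 it called 3, where 2.43% of all genes were called: Hrc rose (as did 1.72% of all genes) and Sln and Casq2 fell (0.703%). At an unadjusted p under 0.05, 5 of the 9 had a positive and 2 a negative change in that interval, as 9.57% and 5.07% of all genes did. The median log2 change of the 9 was 0.18 in the earlier interval and 0.44 in the later one, beside -0.006 and 0.015 for all genes. The intervals share the P7 arrays and last 5 and 7 days.

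**Figure D1:**
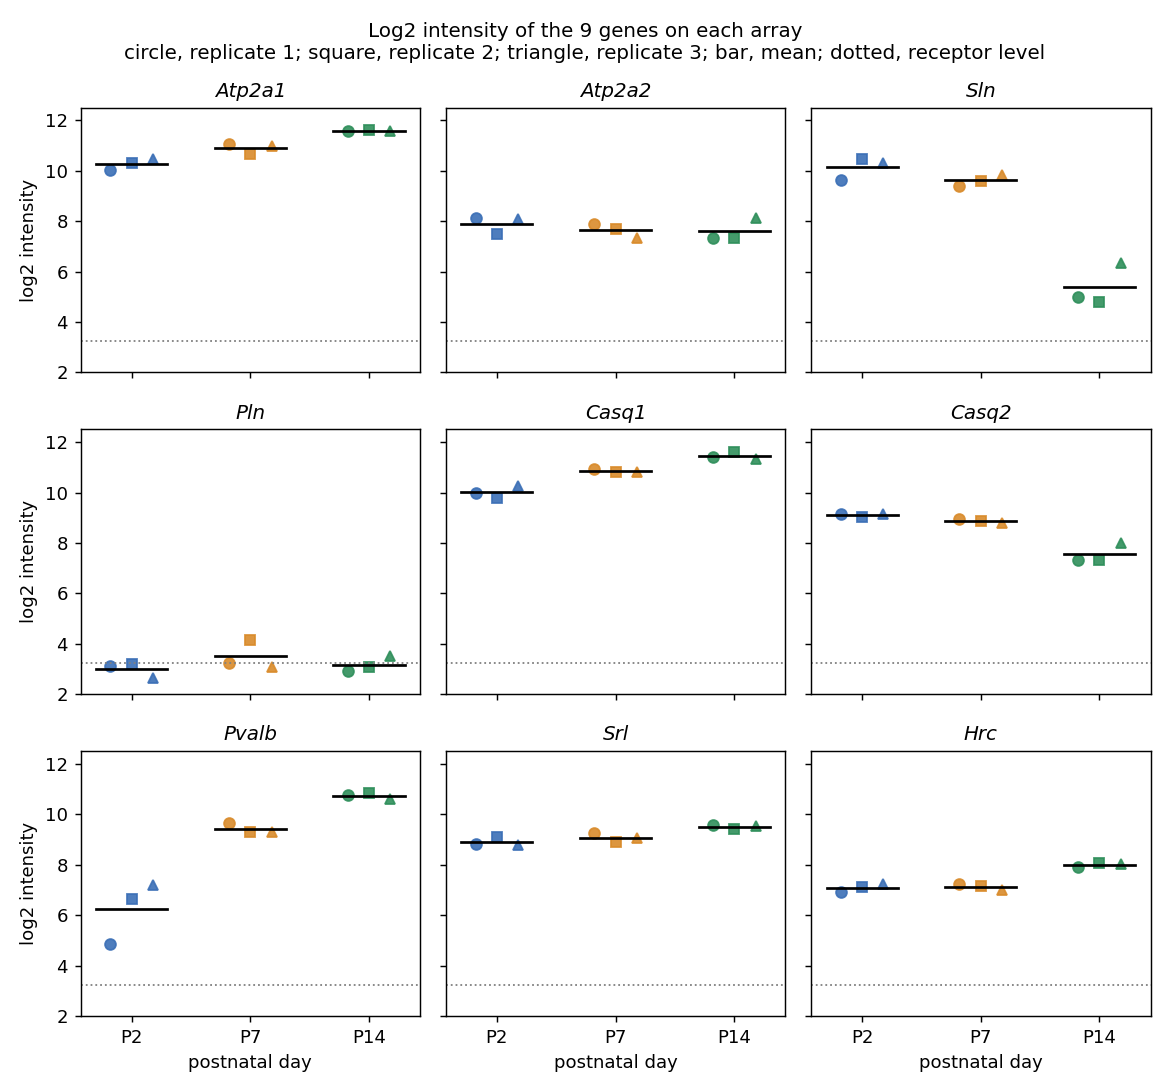
Log2 intensity (y axis) of each of the 9 genes on each of the 9 arrays, by postnatal age (x axis); circles, squares and triangles are replicates 1, 2 and 3, bars are means of 3 arrays, and the dotted line is the receptor level of 3.23. Sln dropped between P7 and P14, Pvalb climbed most between P2 and P7, and Pln lay near the dotted line throughout.

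The pump genes moved apart. Atp2a1 (probe set 17496211, chromosome 7) had log2 intensities of 10.04, 10.31 and 10.45 at P2, 11.06, 10.64 and 10.99 at P7, and 11.57, 11.62 and 11.57 at P14. Every P7 array lay above every P2 array and every P14 array above every P7 array, as 7.30% and 14.8% of all genes did in each interval. Atp2a1 was 2.49-fold higher at P14 than at P2 (log2 1.32 ± 0.18, SE; adjusted p = 0.000245, limma). Neither interval alone passed over all genes, with 0.63 ± 0.18 from P2 to P7 (adjusted p = 0.145) and 0.69 ± 0.18 from P7 to P14 (adjusted p = 0.0582). The later interval was called without any 1 of the P2 arrays (adjusted p from 0.0434) and, among the other settings, down to 0.00949 with a mean-variance trend. Its adjusted p was 0.199 without P14 replicate 2 and 0.112 with cyclic loess. The steps were close in size, their difference being 0.06 ± 0.31 (95% interval -0.60 to 0.71).

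Atp2a2 (probe set 17452405, chromosome 5) had values of 8.12, 7.47 and 8.07 at P2, 7.89, 7.68 and 7.35 at P7, and 7.34, 7.31 and 8.13 at P14. The 3 ages overlapped, and the lowest and the highest of the 9 values both came from P14. Its log2 change from P2 to P14 was -0.29 ± 0.25 (95% interval -0.82 to 0.24; adjusted p = 0.523). Without P14 replicate 3 the change was -0.56 (adjusted p = 0.208). Smooth muscle also uses SERCA2, and its 7 markers averaged between 4.85 and 5.41 over the 9 arrays. From P2 to P14, 1 of them rose, 1 fell and 5 were not called, beside 6.63% and 4.40% of all genes. Their median log2 change was -0.12. The actin Acta2 rose (log2 0.86, adjusted p = 0.00879, and 0.0557 without P14 replicate 2). The actin Actg2 fell (-0.95, adjusted p = 0.0274, and up to 0.110 without single arrays). The part of smooth muscle in the Atp2a2 values was not tested.

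Whether the pump genes changed unequally was tested on the difference of their log2 values within each array, since probe sets differ and the difference is no ratio of amounts. Relative to its P2 mean, Atp2a1 minus Atp2a2 was -0.46, 0.45 and 0.00 at P2, 0.79, 0.58 and 1.26 at P7, and 1.85, 1.93 and 1.06 at P14. The shift from P2 to P14 was 1.61, a 3.06-fold move towards Atp2a1 (exact permutation test of the F statistic over 1680 assignments, p = 0.0107; adjusted over 3 pairs tested, 0.0107). The pairs were the pumps, the calsequestrins and Sln with Pln; the last is not read, because Pln lay near the receptor level. The smallest p this test can give is 0.00357. P14 replicate 3 lay below P7 replicate 3, so the later ages overlapped.

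Of the small inhibitors of the pump, Sln was bright at P2 and Pln was near background at every age. Sln (probe set 17517360, chromosome 9) had values of 9.61, 10.47 and 10.30 at P2, 9.39, 9.60 and 9.84 at P7, and 4.98, 4.79 and 6.35 at P14. The P2 and P7 arrays overlapped, whereas the 3 P14 arrays lay more than 3 log2 units below the lowest earlier array. The change was -0.52 ± 0.34 from P2 to P7 (adjusted p = 0.556) and -4.24 ± 0.34 from P7 to P14 (adjusted p = 5.42e-06, limma), which left Sln 27.0-fold lower at P14 than at P2. The later interval exceeded the earlier one by -3.72 ± 0.58 (adjusted p = 0.0139), the one difference of this kind called among the 9 genes. Of all genes 0.158% had a called negative difference and 0.0361% a positive one. That last call ended without P7 replicate 1, 2 or 3 (adjusted p = 0.0532, 0.114 and 0.132), at differences of -3.94, -3.73 and -3.50. Even so the P14 mean of 5.37 stayed above the receptor level.

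Pln (probe set 17233323, chromosome 10) was at 3.14, 3.20 and 2.66 at P2, 3.25, 4.16 and 3.10 at P7, and 2.93, 3.09 and 3.51 at P14. These values straddle the receptor level, with P7 replicate 2 the highest, so no fold is given. Its log2 change from P2 to P14 was 0.18 ± 0.26 (95% interval -0.38 to 0.74; adjusted p = 0.735).

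Myoregulin (Mrln), a further small inhibitor of SERCA found in skeletal muscle, went the other way from Sln. It was at 6.02, 6.57 and 6.63 at P2, 6.87, 7.08 and 6.90 at P7, and 7.14, 7.15 and 7.15 at P14. Successive ages did not overlap, as was so for rises in 7.30% and 14.8% of all genes in the earlier and the later interval. Mrln rose 1.67-fold from P2 to P14 (log2 0.74 ± 0.18, adjusted p = 0.0179). The call was lost without P2 replicate 1 (0.0733) and without any 1 of the P14 arrays. Of the 4 small regulators listed beside Sln and Pln, Mrln alone was among the genes measured.

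The calsequestrins hold most of the releasable calcium, Casq1 in fast fibres and Casq2 in heart, slow fibres and young muscle. The 250 bases before their annotated starts are shown because these paralogs moved in opposite directions, and that of Pvalb because it rose furthest. The sequences are from RefSeq, build GRCm38.p6, written 5′ to 3′ along the gene; Casq1 is chr1:172219896-172220145 (minus strand), Casq2 chr3:102086165-102086414 (plus strand) and Pvalb chr15:78206401-78206650 (minus strand), the first of 2 start sites listed for it. Capitals mark E-boxes (CANNTG), the motif bound by myogenic factors such as MyoD, and matches to the MEF2 consensus, both searched on either strand.
Casq1: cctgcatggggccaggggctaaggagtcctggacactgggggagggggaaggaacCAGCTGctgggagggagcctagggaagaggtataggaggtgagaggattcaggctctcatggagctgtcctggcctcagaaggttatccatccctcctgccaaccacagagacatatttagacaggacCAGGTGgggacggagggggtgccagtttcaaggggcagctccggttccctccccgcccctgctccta
Casq2: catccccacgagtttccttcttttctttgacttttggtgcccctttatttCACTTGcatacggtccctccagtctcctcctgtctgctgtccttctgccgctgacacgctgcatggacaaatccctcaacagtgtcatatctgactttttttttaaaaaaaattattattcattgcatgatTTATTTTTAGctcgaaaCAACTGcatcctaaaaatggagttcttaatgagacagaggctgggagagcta
Pvalb: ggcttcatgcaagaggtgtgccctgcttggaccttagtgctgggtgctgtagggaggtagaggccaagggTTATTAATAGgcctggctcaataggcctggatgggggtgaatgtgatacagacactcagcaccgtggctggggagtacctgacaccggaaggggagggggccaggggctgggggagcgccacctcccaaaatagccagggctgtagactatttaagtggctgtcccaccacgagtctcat
Casq1 held 2 E-boxes, beginning 195 and 67 bases before the start, and 0 MEF2 matches. Casq2 held 2 E-boxes, at 200 and 52 bases, and 1 MEF2 match at 69 bases. Pvalb held 1 MEF2 match at 180 bases and 0 E-boxes before this start, and 1 E-box at 111 bases and 0 MEF2 matches before its second start. The motifs did not overlap in these 3 sequences, and the CArG box, the site of serum response factor, had 0 matches in any of the 7 promoters found for 6 of the 9 genes. Among 32851 promoters of the same length, 66.2% held an E-box, 2.92% a MEF2 match and 1.47% a CArG box. A match describes letters, not a bound site.

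Casq1 (probe set 17229851) had values of 10.00, 9.77 and 10.24 at P2, 10.95, 10.81 and 10.81 at P7, and 11.42, 11.59 and 11.33 at P14. Each age lay wholly above the one before, as 7.30% and 14.8% of all genes did in the earlier and the later interval. Casq1 was 2.72-fold higher at P14 than at P2 (log2 1.44 ± 0.17, adjusted p = 9.51e-05). The step from P2 to P7 was 0.86 ± 0.17 and just missed the threshold (adjusted p = 0.0519, limma). The adjusted p was 0.0312 without P2 replicate 3 and 0.0485 with array medians centred. It was 0.157 without P7 replicate 3 and up to 0.184 among the other settings. The step from P7 to P14 was 0.59 ± 0.17 (adjusted p = 0.0979). Its adjusted p was 0.0446 with only these ages fitted, 0.333 without P14 replicate 2 and 0.2 with cyclic loess.

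Casq2 (probe set 17401041) had values of 9.13, 9.03 and 9.15 at P2, 8.93, 8.88 and 8.79 at P7, and 7.33, 7.33 and 8.01 at P14. Here each age lay wholly below the one before, as 7.90% and 9.13% of all genes did in the earlier and the later interval. The change from P2 to P7 was small and not called (-0.24 ± 0.19, adjusted p = 0.652). From P7 to P14 Casq2 was 2.47-fold lower (-1.31 ± 0.19, adjusted p = 0.0017), and over the whole span 2.92-fold lower (-1.54 ± 0.19, adjusted p = 0.000139). The called falls were kept with any 1 array left out.

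Casq1 minus Casq2 within arrays, relative to the P2 mean, was -0.03, -0.16 and 0.20 at P2, 1.12, 1.03 and 1.13 at P7, and 3.19, 3.36 and 2.42 at P14. The ages did not overlap. The shift of 2.99 from P2 to P14 is a 7.94-fold move towards Casq1 (exact permutation p = 0.00357, the smallest possible; adjusted 0.0107). The P7 arrays were close together, and P14 replicate 3 lay below the other P14 arrays.

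**Figure D2:**
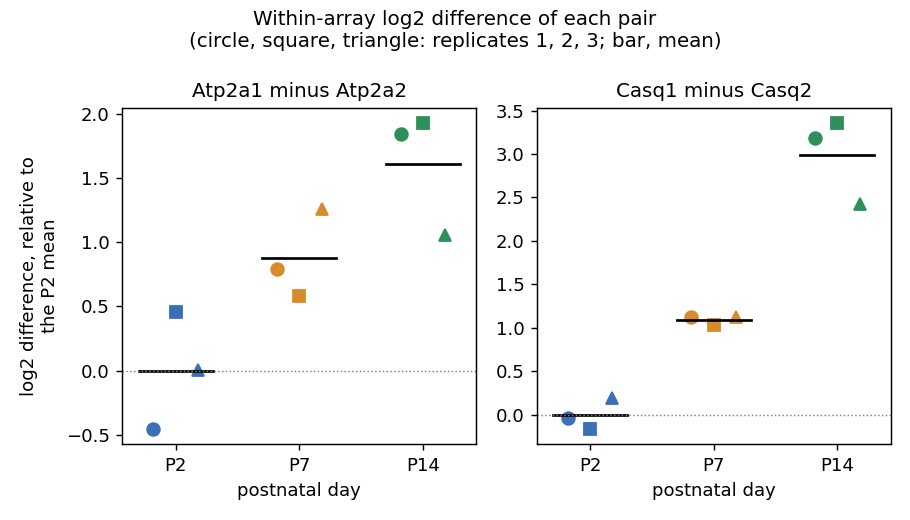
Within-array log2 difference of the pump genes and of the calsequestrins (y axes, set to 0 at the P2 mean and scaled separately) by postnatal age (x axes); circles, squares and triangles are replicates 1, 2 and 3 and bars are means. From P2 to P14 the means moved by 1.61 and 2.99, with P14 replicate 3 the lowest P14 array in both panels.

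Sarcalumenin (Srl) binds calcium in the lumen beside the pump. It (probe set 17327737, chromosome 16) was at 8.82, 9.09 and 8.78 at P2, 9.27, 8.89 and 9.07 at P7, and 9.57, 9.44 and 9.53 at P14, so that the P14 arrays were above all earlier ones and the P2 and P7 arrays overlapped. Its rise from P2 to P14 was the smallest called, 1.53-fold (log2 0.61 ± 0.17, adjusted p = 0.0303). It was not called with cyclic loess (0.39, adjusted p = 0.170), nor without P2 replicate 1 (0.0875), P2 replicate 3 (0.0728), or P14 replicate 1, 2 or 3 (0.112, 0.0752 and 0.0976).

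Hrc, the histidine-rich calcium-binding protein of the lumen (probe set 17477774, chromosome 7), was at 6.94, 7.12 and 7.25 at P2 and 7.23, 7.15 and 7.01 at P7, a complete overlap (log2 0.03 ± 0.16). At P14 it was at 7.90, 8.07 and 8.04, above every earlier array. It rose 1.83-fold from P7 to P14 (log2 0.87 ± 0.16, adjusted p = 0.0103). The call ended without P7 replicate 3, P14 replicate 2 or P14 replicate 3 (adjusted p = 0.0562, 0.0696 and 0.0626), at log2 changes of 0.81 to 0.85. The difference between the intervals was 0.84 ± 0.28 and was not called (adjusted p = 0.404). Over the whole span Hrc rose 1.87-fold (adjusted p = 0.00252) and kept that call with any 1 array left out.

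Parvalbumin showed the largest rise of the 9. It (probe set 17318942) was at 4.86, 6.65 and 7.21 at P2, 9.65, 9.31 and 9.29 at P7, and 10.77, 10.83 and 10.63 at P14. The ages did not overlap, as was so for rises in 7.30% and 14.8% of all genes in the earlier and the later interval. The P2 arrays were spread over more than 2 log2 units while the P14 arrays were close together. Pvalb rose by a log2 change of 3.18 ± 0.41 from P2 to P7 (adjusted p = 0.00519) and was 22.6-fold higher at P14 than at P2 (4.50 ± 0.41, adjusted p = 7.89e-06; log2 3.81 without P2 replicate 1, adjusted p = 7.49e-07). The later step of 1.33 ± 0.41 was not called (adjusted p = 0.116, and 0.303 without P14 replicate 2). It was called without P2 replicate 1 (0.00177) and with only P7 and P14 fitted (0.000845). That it was smaller than the earlier step was not called either (difference -1.85 ± 0.71, adjusted p = 0.511).

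**Figure D3:**
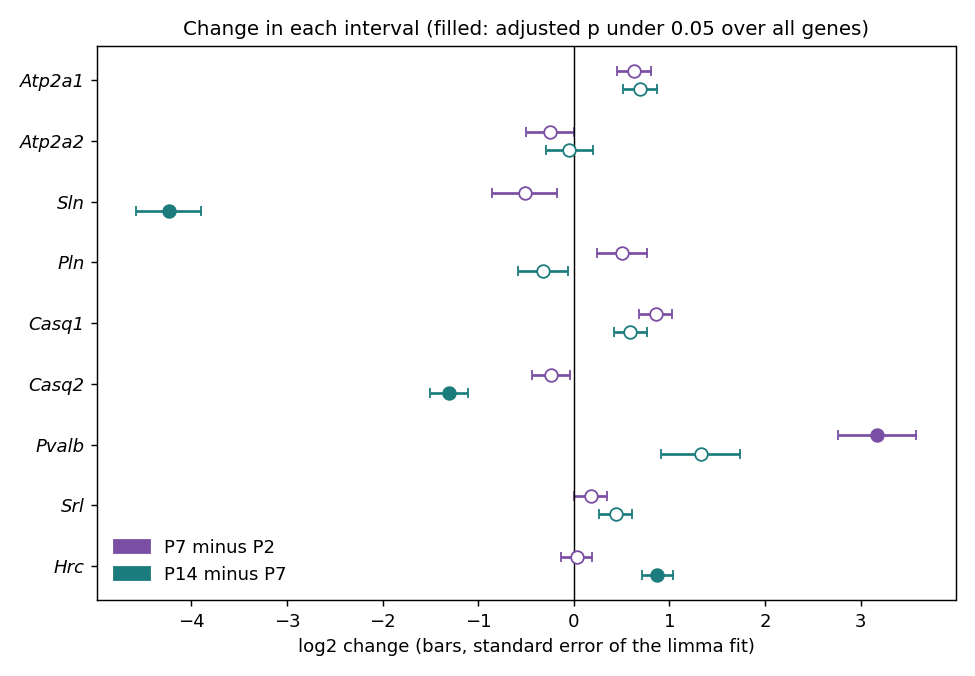
Log2 change (x axis) of the 9 genes from P2 to P7 (purple) and from P7 to P14 (green), with bars of 1 SE from the limma fit over 9 arrays and filled points for an adjusted p under 0.05 over all genes. The filled points are Pvalb in the earlier interval and Sln, Casq2 and Hrc in the later one.

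The low Pvalb value of P2 replicate 1 came with low values of other fast fibre genes on that array. Of 10 adult fast fibre genes, 8 were lowest there among the P2 arrays, and their mean was 7.86 against 8.75 and 9.21 for replicates 2 and 3; the fast myosin Myh4 was at 5.33 against 8.85 and 10.26. The fast list averaged at least 9.93 on every P7 array and at least 10.46 on every P14 array. P2 replicate 1 differed in other lists too. Its 10 slow fibre genes averaged 5.62 against 5.69 and 5.83 for replicates 2 and 3. Of these genes 5 were lowest and 3 highest there among the P2 arrays. Its 6 developmental fibre genes averaged 7.92 against 7.35 and 7.81. Ckm was lowest there, at 9.81 against 10.61 and 10.26, while Acta1, at 11.92, was not. The part of this array's fibre content, fast or other, in the Pvalb values was not tested. Without P2 replicate 1 the rise of Pvalb from P2 to P7 was 2.49 (adjusted p = 0.000283). Pvalb followed Ankrd23, a muscle ankyrin repeat gene, and the fast myosins Myh1 and Myh2 most nearly: with each gene centred on its own mean, the root mean square differences over the 9 arrays were 0.47, 0.53 and 0.54 log2 units, the smallest among 11388 candidate genes.

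P14 replicate 3 stood apart in the genes of slow fibres. Sln, Casq2, Atp2a2 and Pln were each higher on it than on both other P14 arrays, though Pln lay near the receptor level. So were 8 of 10 slow fibre markers, whose mean was 6.35 there against 5.88 and 5.66; slow myosin Myh7 was at 7.30 against 6.32 and 5.91, and slow troponin C, Tnnc1, at 6.75 against 5.88 and 5.72. The 6 developmental fibre genes averaged 5.56 there against 5.65 and 5.53, and the heart markers 3.28 against 3.37 and 3.39. At the other ages the genes did not all follow the slow list. On P7 replicates 1, 2 and 3 the list averaged 6.07, 5.84 and 5.64. Atp2a2 and Casq2 had that array order at P7, whereas Sln had the reverse, at 9.39, 9.60 and 9.84. At P2 the order of each of these genes differed from that of the list. Over the ages the slow list overlapped, lying between 5.62 and 5.83 on the P2 arrays and between 5.63 and 6.07 on those of P7. Of its 10 genes 2 rose, 0 fell and 8 were not called from P2 to P14, beside 6.63% and 4.40% of all genes. The median log2 change of the list was -0.09. The 2 were Ankrd2, a stress-responsive ankyrin repeat gene, and Myl3, the slow light chain (log2 2.15 and 1.23). The Myl3 call was lost when P2 replicate 1, P2 replicate 2, P14 replicate 1 or P14 replicate 3 was left out (adjusted p 0.101 at most). The part of slow fibre content in the values of this array was not tested. Without P14 replicate 3 the falls from P7 to P14 were larger, -4.73 for Sln (adjusted p = 8.78e-07) and -1.53 for Casq2 (adjusted p = 0.000554).

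**Figure D4:**
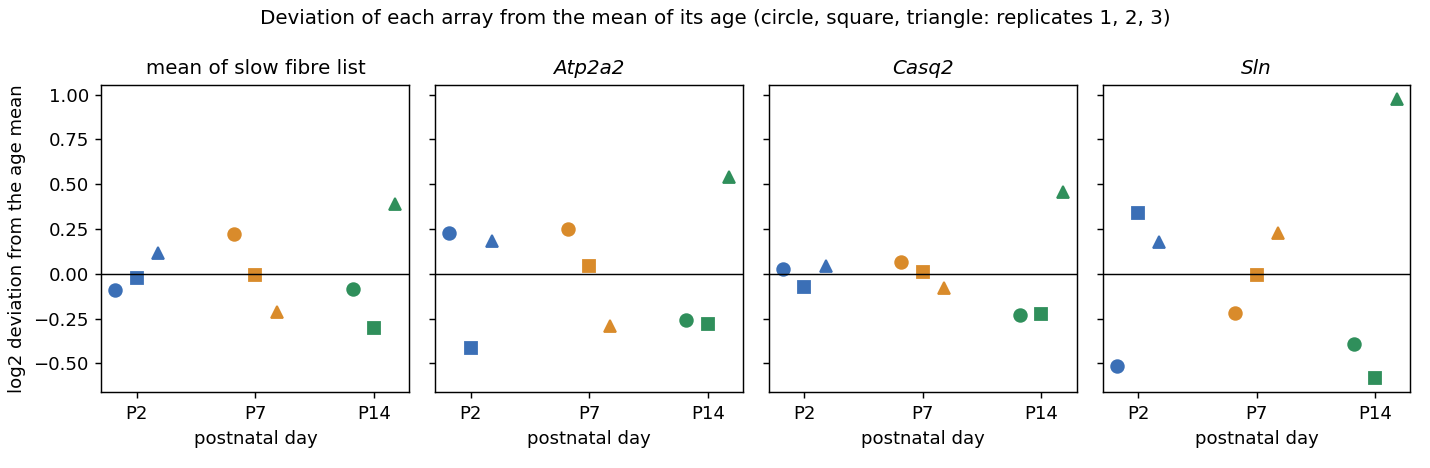
Deviation of each array from the mean of its age, in log2 units (y axis), for the mean of 10 slow fibre genes and for Atp2a2, Casq2 and Sln, by postnatal age (x axis); circles, squares and triangles are replicates 1, 2 and 3. The triangle of P14 is the highest P14 point in all 4 panels, and at P7 Atp2a2 and Casq2 have the array order of the slow list while Sln has the reverse; at P2 the order differs from that of the slow list in all 3 genes.

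The genes closest in course to Sln were Myh8, the perinatal myosin, and the precursor signals of the microRNA genes Mir379 and Mir154, at root mean square differences of 0.57, 0.81 and 0.85 log2 units. Mir154 averaged 2.985 at P14, below the receptor level. Myh8 was at 10.88, 10.89 and 10.68 at P2, 9.79, 9.67 and 9.76 at P7, and 5.50, 5.56 and 5.44 at P14. Its fall from P2 to P7 of 1.08 on the log2 scale was called (adjusted p = 0.00989; 0.0610 without P7 replicate 3), and that of Sln was not; whether the genes differ in this interval was not tested. Closest to Casq2 were Peg3, an imprinted gene, Bmpr1b, a receptor for bone morphogenetic proteins, and Postn, the matrix protein periostin, at 0.20, 0.22 and 0.25 log2 units. Bmpr1b averaged 3.253 at P14, near the receptor level. Peg3 had a log2 change of -1.12 ± 0.16 between P7 and P14 (adjusted p = 0.00123). Of 6 connective tissue markers, Postn among them, Postn and Pdgfra were called lower at P14 than at P2, as 4.40% of all genes were. Their log2 changes were -1.91 and -0.63. The Pdgfra call (adjusted p = 0.0496, limma) was kept of all single omissions in that of P2 replicate 3 alone (0.182 at most). The other 4 were not called. Col1a1 and Col3a1 had changes of -0.73 and -0.57 (adjusted p = 0.0712 and 0.0884), and Dcn and Lum of 0.36 and 0.15. The list averaged between 9.16 and 9.40 on the P2 arrays and between 8.64 and 8.78 on the P14 arrays. The part of connective tissue in the values of Casq2 was not tested.

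Other genes of muscle calcium handling were taken from a list of 85, of which 75 were measured and 7 were below the receptor level at every age. From P2 to P14, 22 rose, 7 fell and 46 were not called, beside 6.63% and 4.40% of all genes. Their median log2 change was 0.21, against 0.013 for all genes. From P7 to P14, 4 rose and 2 fell (1.72% and 0.703% of all genes), and from P2 to P7 limma called 0. At an unadjusted p under 0.05, 15 of the 75 had a positive and 6 a negative change in that interval, as 6.21% and 6.61% of all genes did. Of the 29 calls from P2 to P14, 22 were kept with any 1 array left out; the others were Atp2b3, Atp2b4, Mrln, Camk2a, S100a1, Ppp1r3a and Ppp3ca, at adjusted p up to 0.145 (Ppp1r3a without P14 replicate 3).

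The release genes held the largest fall and the largest rise on this list. Ryr3, the ryanodine receptor of young muscle, was at 5.83, 5.25 and 5.68 at P2, 4.86, 4.89 and 4.62 at P7, and 3.32, 3.35 and 3.57 at P14, close to the receptor level. It was 4.51-fold lower at P14 than at P2 (log2 -2.17 ± 0.19, adjusted p = 4.53e-06). Over that span 6.63% of all genes rose, and so did 4 of 11 measured release and voltage sensing genes. These were Stac3, which couples the voltage sensor to release (3.51-fold, log2 1.81 ± 0.23), the voltage sensor subunit Cacna1s (2.28-fold), the adult release channel Ryr1 (2.04-fold, adjusted p = 0.0021; 0.0523 when all its probe sets were averaged) and Cacna2d1, an accessory subunit of the voltage sensor named after its value was seen (1.64-fold). Stac3 and Ryr3 were also called from P7 to P14, at 1.26 and -1.38; the Stac3 call ended without P14 replicate 2 or 3 (adjusted p up to 0.0584).

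Among 19 junction and reticulum genes, 7 rose and 1 fell from P2 to P14, beside 6.63% and 4.40% of all genes. Tmem38a, a potassium-permeable channel of the reticulum, rose 2.45-fold (log2 1.29 ± 0.18, adjusted p = 0.000376), the junction proteins Jsrp1 2.06-fold, Trdn (triadin, which ties calsequestrin to the release channel) 2.21-fold and Sypl2 2.23-fold. The gene that fell was Rcn3, a reticulocalbin (log2 -0.93), named after its value was seen. Tmem38a was called from P7 to P14 as well (0.81 ± 0.18, adjusted p = 0.0314), a call that ended without any single array of P7 or of P14 (up to 0.132) and with cyclic loess (0.0661).

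Of 10 other pumps and exchangers 1 rose and 2 fell from P2 to P14, where 6.63% and 4.40% of all genes did. The sodium-calcium exchanger Slc8a1 (log2 -0.87 ± 0.18, adjusted p = 0.00686) and the plasma membrane pump Atp2b4 (-0.83 ± 0.23, adjusted p = 0.0292) fell, and Atp2b3 rose from 3.45 to 4.33 (adjusted p = 0.0116). The last 2 were lost without single arrays, Atp2b4 without P2 replicate 1 or 3 or any P14 array (up to 0.112) and Atp2b3 without P14 replicate 3 (0.0672). The third SERCA gene, Atp2a3, was not called, at a log2 change of 0.43 (adjusted p = 0.211).

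Of 13 kinases, phosphatases and partners that act near the pump, 4 rose and 2 fell from P2 to P14, beside 6.63% and 4.40% of all genes. Camk2g and Camk2a, calcium/calmodulin-dependent kinases, rose 1.89-fold and 1.98-fold, the latter lost without P14 replicate 2 (adjusted p = 0.0641). The protein kinase A genes Prkaca and Prkar2b, a catalytic and a regulatory subunit, had log2 changes of -0.82 ± 0.18 and -1.44 ± 0.30 and fell. Prkar2b averaged 3.44 at P14, close to the receptor level, which limits what the size of its fall means. Another regulatory subunit, Prkar1a, was not called (log2 0.10, adjusted p = 0.754, limma). S100a1, a calcium sensor that binds SERCA and the ryanodine receptor, averaged 4.47, 4.40 and 5.65 at the successive ages and was called from P7 to P14 (log2 1.25 ± 0.30, adjusted p = 0.041), as was Prkar2b (-1.30 ± 0.30, adjusted p = 0.0377). The Prkar2b call ended without any P7 array or P14 replicate 1 or 2 (up to 0.188), and the S100a1 call without P7 replicate 2 or 3 or any P14 array (up to 0.173) and with cyclic loess (0.0598).

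Of 8 measured genes of mitochondrial calcium handling, 3 rose and 1 fell from P2 to P14, beside 6.63% and 4.40% of all genes. Letm1 (2.73-fold), Micu3 (2.41-fold) and Mcur1 (2.05-fold) were higher, and Micu2, a gatekeeper of the uniporter, was 1.81-fold lower (adjusted p = 0.00272). Micu3, a uniporter regulator, was also called from P7 to P14 (0.97 ± 0.18, adjusted p = 0.00812; 0.0626 without P14 replicate 3). In the calcineurin pathway, which links calcium to slow fibre gene expression, 2 of 7 rose from P2 to P14, beside 6.63% of all genes. They were the calcineurin inhibitor Rcan1 (2.37-fold) and the catalytic subunit Ppp3ca (1.53-fold, adjusted p = 0.0321). For Ppp3ca the adjusted p was up to 0.110 with 1 array left out, and 0.146 with cyclic loess. Its call was also lost with the replicate block. Of 6 other cytosolic calcium binders limma called 0 in any pair of ages, and from P2 to P14, 1 had a positive and 1 a negative change at an unadjusted p under 0.05, as 13.7% and 10.5% of all genes did. Calb1, Calb2 and Ocm (calbindin, calretinin and oncomodulin) were below the receptor level at every age.

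**Figure D5:**
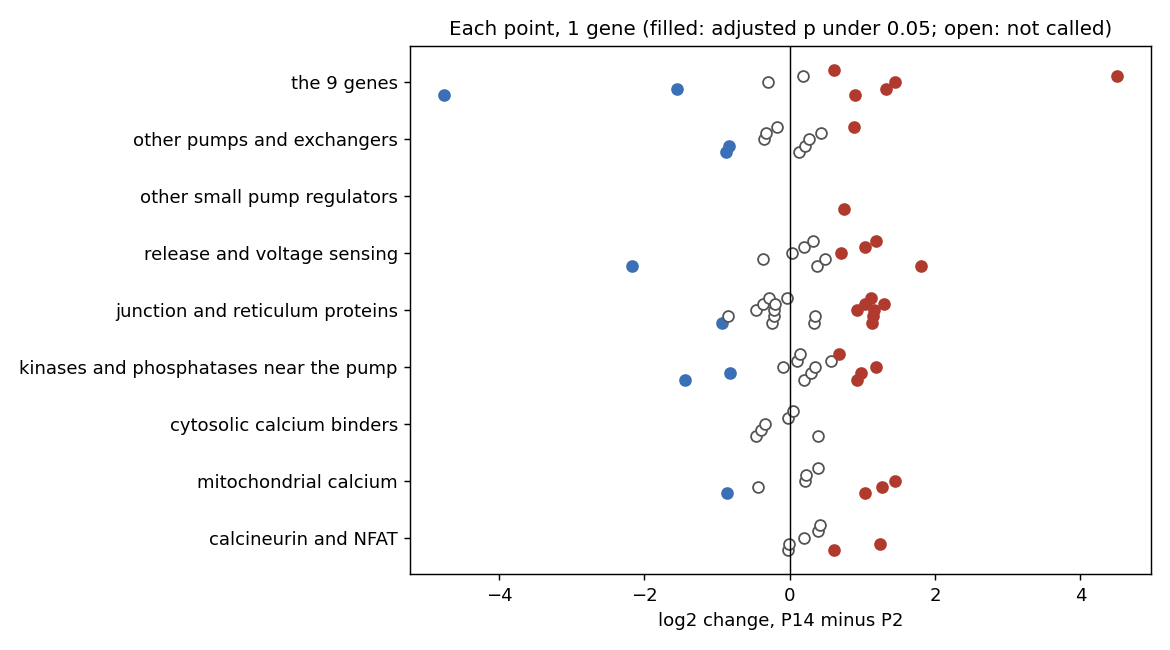
Log2 change from P2 to P14 (x axis) of the 9 genes and of 75 other calcium handling genes by group (y axis); each point is 1 gene, filled red for a called rise, filled blue for a called fall and open where not called. Sln at -4.76 and Pvalb at 4.50 lie outside the range of the other groups, in which Ryr3 at -2.17 and Stac3 at 1.81 are the extremes.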

How the data were processed

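The deposited table holds 1 log2 intensity per probe set (41345) and array. Per the submitters' processing notes the authors used RMA and Partek, without versions or settings; the log2 base follows from RMA, and array medians were 3.29 to 3.36. RMA draws arrays to a shared distribution and compresses values near background. Total RNA was extracted with Trizol and 6 ug was labelled, per the labels. The sources used here do not name the array platform or the build.

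Probe sets with 1 symbol (23521) were kept, 23328 matching a RefSeq gene of GRCm38.p6 by Entrez number; 1814 had several symbols and 16010 were unnamed. The brightest probe set per gene gave 22180 genes. limma 3.58.1 in R 4.3.3 fitted 1 mean per age over 9 arrays; moderated two-sided tests took a Benjamini-Hochberg adjustment across the 22180 genes, and an adjusted p under 0.05 was called. Errors of changes are SE. No filter on dim genes was used. Precision is limited by the small number of arrays. The fit was tested on simulated data. Alternatives covered scaling, probe sets, a filter, moderation, weights, a replicate block and leaving out arrays. RefSeq promoters matched 6 of the 9 genes.

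The members, lists and tests were chosen with earlier results of these data known. Named genes are the 9, up to 4 called genes per list and pair of ages with the smallest adjusted p, and for Sln, Casq2 and Pvalb the 3 nearest genes whose mean at some age exceeded the median of all genes, passing over clone numbers. Other genes are marker genes given beside a result, or were named after their values were seen.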

Additional observations from a re-analysis of the deposited data

Results flagged for a closer look

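Sln changed differently in the later interval than in the earlier one, by -3.72 ± 0.58 on the log2 scale (adjusted p = 0.0139, limma). The call ended without P7 replicate 1, 2 or 3 (adjusted p = 0.0532, 0.114 and 0.132). Myh8, Mir379 and Mir154 were picked from all candidates as nearest to Sln in course. A like difference in them follows from that choice and supports nothing. Myh8 differed by -3.16 ± 0.27 (adjusted p = 0.00023), Mir379 by -2.71 ± 0.33 (0.00364) and Mir154 by -2.75 ± 0.40 (0.0081). Mir154 averaged 2.985 at P14, below the receptor level, which limits what the size of its difference means.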

How the results depend on the processing

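Of the changes of single members recomputed under other settings, 592 kept direction and side of the threshold, 20 gained a call, 12 lost one and 11 turned sign. No turned value was called. With array weights the Atp2a1 difference between intervals turned to -0.0098. The other turned values lay within ranges found on leaving out single arrays, which also hold values that kept their sign. The Atp2a1 difference between intervals ranged from -0.20 to 0.22. Atp2a2 ranged from -0.31 to 0.094 for P7 to P14, and from -0.093 to 0.45 between intervals. Hrc ranged from -0.051 to 0.10 for P2 to P7, and Pln from -0.53 to 0.0044 for P7 to P14. From P2 to P14, 6 or 7 members were called under every setting run.

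From P2 to P7, where 1 member was called, 2 were called with array medians centred, 2 with dim genes removed, 3 with a mean-variance trend, 2 with robust moderation, and 1 to 2 with single arrays left out. Of the calcium handling list, where 0 were called, the counts were 1, 6 and 5 under the first 3 of these settings and 0 to 4 without single arrays. From P7 to P14, where 3 members were called, 5 were called with dim genes removed, 5 with the trend, 6 with array weights, 6 with only the ages compared, and 2 to 5 without single arrays; of the list, where 6 were called, 11 with weights, 10 with only these ages and 2 to 8 without single arrays. The member called between intervals, Sln, became 0 to 1 without single arrays. Removing dim genes kept the 12051 genes whose highest age mean exceeded the median of all genes. A gene could thus pass through 1 age alone, and Pln was dropped from the members. The cause of the shifts under these settings was not tested. Over all genes, the calls from P2 to P7 were 73 in the fit reported, 184 without dim genes, 159 with the trend and 11 to 206 without single arrays, and from P7 to P14 538, 871, 726 and 214 to 794, with 1221 under weights. From P2 to P14 they were 2447 and, without single arrays, 1373 to 2611. The interval calls were 43 and 18 to 44.

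The deviations of same-numbered arrays from their age means had 9 correlations over all genes of -0.03 to 0.06. Such correlations cannot exclude a shared factor that touches few genes, so whether the numbers pair samples remains unknown. With the replicate block the member counts stayed at 1, 3 and 7 for the 3 pairs of ages, and the list at 0, 6 and 29. Equal counts need not mean the same genes, as Ppp3ca of the list lost its call from P2 to P14 with the block. The calls over all genes with the block were 61, 458 and 2320. The list counts were added after seeing the data. Signal over background limits Pln, and the number of arrays every value.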
